A study of Mus musculus with 10 samples.

Results

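The 34 genes described here encode proteins of autophagy, of mitophagy (autophagy of mitochondria) and of the lysosome. They were chosen by symbol: each row of the deposited count table whose gene symbol was on a list of 34 such genes, out of 55385 genes in the table. All 34 were found, and all 34 were among the 18491 genes that passed a filter on low counts, with between 167 (Atg14) and 17756 (Ctsd) counts in a library. RNA was sequenced from left ventricles of C56Bl6 mice, the labels' spelling of the strain, and 5 libraries were made per group. Control mice ate a standard diet, and HFpEF mice received, over 6 weeks, a high-fat diet plus L-NAME, which blocks nitric oxide synthase. HFpEF is heart failure with preserved ejection fraction, and this treatment is used to model it in mice. The sources used here give no age or sex and do not say whether each library came from its own mouse, so p-values measure only the spread between these libraries. The libraries held 31555001 to 46108710 counts in Control and 31286355 to 33604554 in HFpEF. The summed level of 9 cardiomyocyte markers, most of it Ttn, was 69505 to 73959 CPM (counts scaled to a common library size) in Control and 71363 to 76482 in HFpEF. Of the 9, Tnnt2 was called lower (log2 fold change -0.22, edgeR adjusted p = 0.0185) and 8 were not called. Of 4 atrial markers, Myl7 and Sln had at most 13 and 3 counts in a library and Myl4 at most 46. Nppa, which encodes atrial natriuretic peptide, had 462 to 2499 counts and was called lower (-1.19, adjusted p = 0.0187). The atrial sum was 37.0 to 58.0 CPM in Control and 14.96 to 29.3 in HFpEF. Most of it was Nppa, at 36.5 to 57.0 CPM in Control and 14.5 to 28.4 in HFpEF. Myl4 was at a mean of 0.769 and 0.722 CPM and was not called. The part of the atrial sum in the values below was not tested.

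Autophagy delivers parts of the cytoplasm to the lysosome in a double membrane, the autophagosome. A kinase complex around Ulk1 or Ulk2 starts the process, a lipid kinase complex marks the forming membrane, and 2 conjugation reactions attach small proteins of the ATG8 family (LC3 and GABARAP proteins) to it. Cargo receptors bind the cargo and the ATG8 proteins, and lysosomal proteases such as the cathepsins break the content down. The heart depends on the pathway because cardiomyocytes are long-lived and rich in mitochondria. FoxO factors and Tfeb are known activators of its genes.

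CPM were scaled with TMM factors, and differences are log2 fold changes of HFpEF against Control with their standard error (SE) or 95% interval. A gene was called at an adjusted p below 0.05 in edgeR's quasi-likelihood test, adjusted over all genes tested. Of the 34 genes, 3 rose (Ulk2, Map1lc3a and Pink1), 1 fell (Ctsl) and 30 were not called. The 4 calls are 11.8% of the 34, where 5.33% of all genes tested were called. The 3 higher genes are 8.82% against 3.24% over all genes, and the 1 lower gene is 2.94% against 2.09%. The changes were small: Map1lc3a, the largest rise, was 1.26-fold higher and Ctsl was 0.812 of its Control level. The median log2 fold change was 0.01 over the 34 genes and -0.01 over all genes tested, and the median size of the change was 0.08 and 0.11. All genes tested include genes with fewer counts than any of the 34, and the comparisons were not matched for level. With a stricter filter (1 CPM in 5 libraries), 6.98% of the genes tested were called, and the same 4 of the 34.

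**Figure D1:**
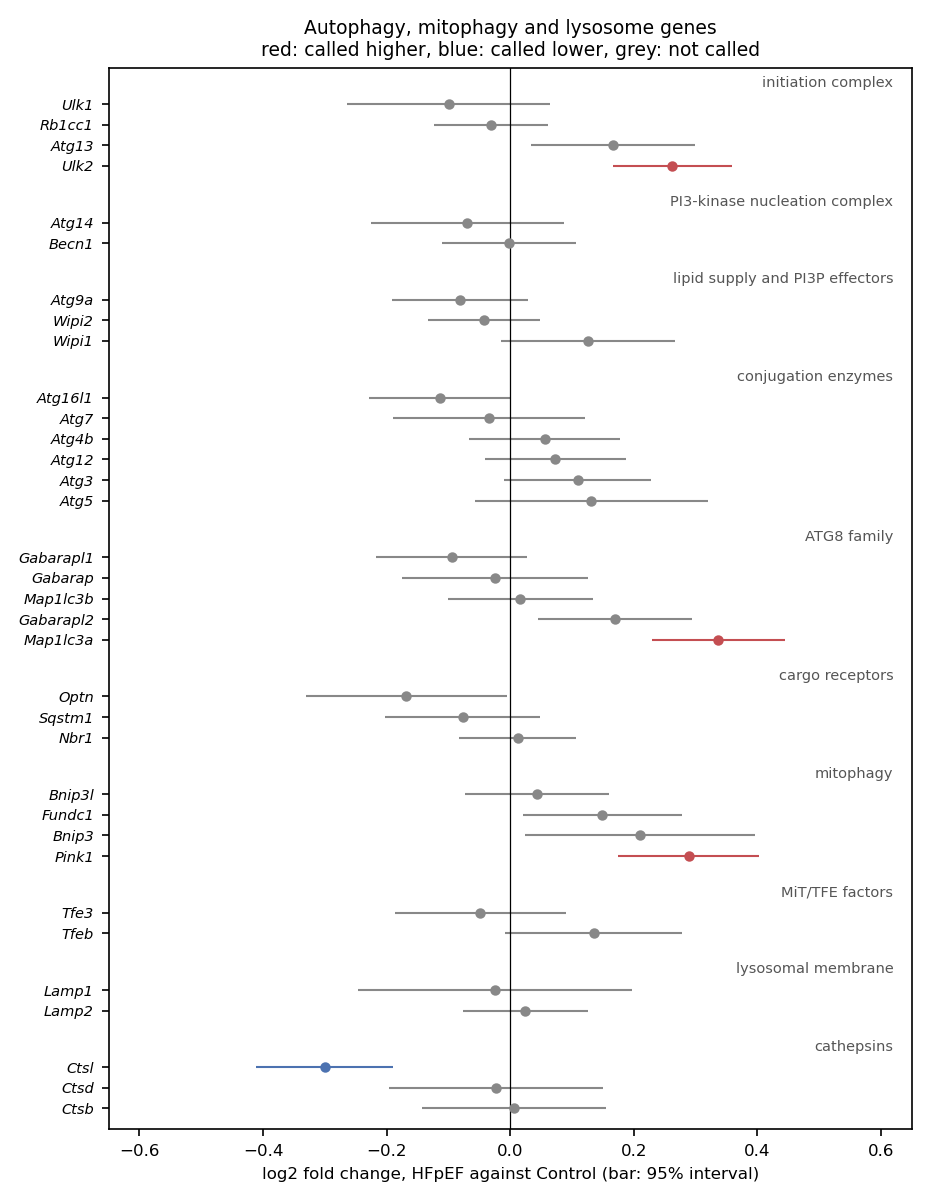
Log2 fold change of each of the 34 genes, HFpEF against Control (x axis), by role; points are edgeR estimates, bars 95% intervals, red genes were called higher, blue lower and grey were not called. Ulk2 (0.26), Map1lc3a (0.34) and Pink1 (0.29) lie to the right and Ctsl (-0.30) to the left, and 30 genes were not called.

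The groups did not overlap for 5 genes that were higher in all HFpEF libraries (Ulk2, Atg13, Map1lc3a, Pink1 and Fundc1), where 3.88% of all genes tested had this pattern. They did not overlap for 1 gene that was lower, Ctsl, against 2.93% of all genes. Atg13 and Fundc1 had such separate values without being called. None of the 4 calls was lost on leaving out any 1 of the 10 libraries, or under any other alternative tried.

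**Figure D2:**
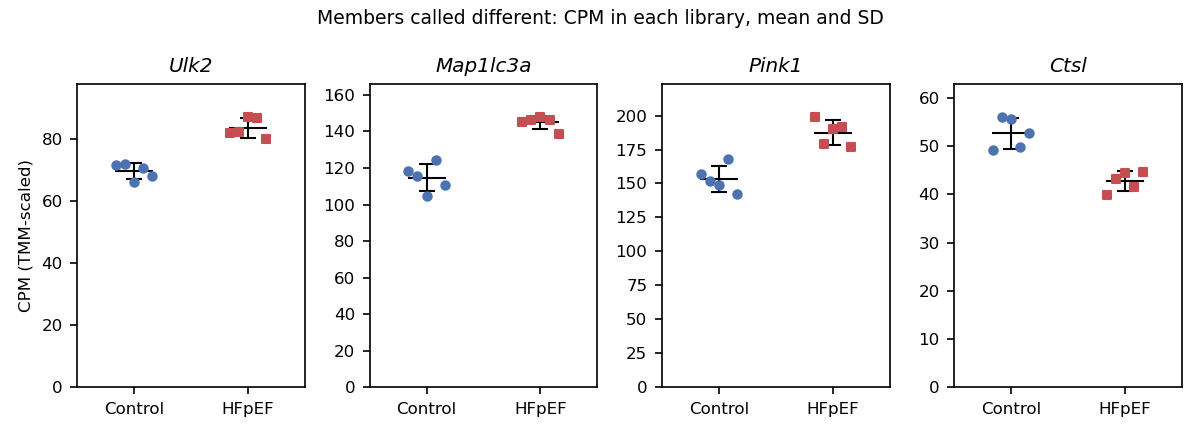
CPM of the 4 called genes in each library (y axis, from 0), with Control as circles and HFpEF as squares; the bars are the mean and SD of 5 libraries. The HFpEF libraries lie above all Control libraries for Ulk2, Map1lc3a and Pink1 and below them for Ctsl.

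The start regions of these genes were read for the DNA motifs of their known regulators. RefSeq promoters (build GRCm38.p6, 250 bases before to 50 after a start site) were found for 27 of the 34 genes, with 31 start sites in all; Map1lc3a was not among them. The E-box CACGTG, the core that Tfeb and Tfe3 bind in lysosomal genes, stood in 8 of the 31 promoters (25.8%) and in 7.15% of all 32851 promoters of the same length. Its longer form GTCACGTG, on either strand, stood in 5 of 31 (16.1%) and in 2.25% of all. Each longer form contains the E-box. The forkhead element GTAAACA, searched on both strands, stood in none of the 31 and in 3.65% of all promoters. The 31 promoters were richer in G and C than all promoters (medians 59.3% and 52.7%), and the part of this in the motif counts was not tested. A match describes letters only, and no match says only that those letters are not in the window.

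The bases before the start sites of Lamp1, Pink1 and Ulk2 are shown, 5′ to 3′ on the gene's strand with each E-box in capitals, because Lamp1 holds more E-boxes than any other of the 31 promoters and Pink1 and Ulk2 are the called higher genes with a promoter. They lie at chr8:13158911-13159160 (plus strand), chr4:138326297-138326546 (minus strand) and chr11:61855093-61855342 (minus strand).
Lamp1 promoter: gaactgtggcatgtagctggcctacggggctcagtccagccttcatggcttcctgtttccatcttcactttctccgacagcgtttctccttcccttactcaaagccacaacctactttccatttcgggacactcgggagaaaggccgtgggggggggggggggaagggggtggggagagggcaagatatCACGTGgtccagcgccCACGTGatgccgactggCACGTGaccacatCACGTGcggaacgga
Pink1 promoter: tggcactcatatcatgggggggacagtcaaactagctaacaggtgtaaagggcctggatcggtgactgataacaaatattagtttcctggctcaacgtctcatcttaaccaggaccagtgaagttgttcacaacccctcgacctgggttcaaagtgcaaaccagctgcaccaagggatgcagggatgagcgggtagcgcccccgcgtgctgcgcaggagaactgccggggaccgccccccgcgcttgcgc
Ulk2 promoter: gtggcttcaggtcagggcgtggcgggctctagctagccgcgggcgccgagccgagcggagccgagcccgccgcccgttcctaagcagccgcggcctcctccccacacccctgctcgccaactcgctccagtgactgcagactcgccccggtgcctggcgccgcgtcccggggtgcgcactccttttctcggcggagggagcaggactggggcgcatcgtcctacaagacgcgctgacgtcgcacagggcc
Lamp1 carries 4 E-boxes between base -61 and base -10 from its start, and its level was not called (below). Pink1 and Ulk2, which rose, carry none in this window. An E-box stood in 7.15% of all promoters, so its absence is the usual case.

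The E-boxes of the other genes are shown with 11 bases on either side where the window holds them, again in capitals and 5′ to 3′ on the gene's strand.
Ctsd: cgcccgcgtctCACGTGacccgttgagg
Ctsl: gcgttagaagcCACGTGctgatctaaat
Atg3: gagagtcgagtCACGTGaggccttaggt
Atg5: ggagcgcttgcCACGTGgtcttggtgac
Atg7: atattggtggtCACGTGtgcagtaagtg
Atg14: aaacaaaatccCACGTGactggccctga
Bnip3: cgcacgcgccgCACGTGccacacgctcc
That of Ctsd starts at base -98 (chr7:142387909-142387936, minus strand), and a further one starts at base -245. That of Atg3 starts at base -71 (chr16:45158747-45158774, plus strand), with another at base -94. Those of Atg5 (chr10:44268314-44268341, plus strand) and Bnip3 (chr7:138909598-138909625, minus strand) start at base -14 and base -108. Those of Atg7 (chr6:114670953-114670980, plus strand) and Atg14 (chr14:47568419-47568446, minus strand) start at base -132 and base -1. That of Ctsl (chr13:64370740-64370767, minus strand) starts at base -236. The RefSeq starts of Ctsl and Atg7 lie 214 and 9066 bases from the nearest GENCODE M21 transcript start of the gene, so these 2 windows may not be used promoters. Of the 8 genes with an E-box, Ctsl fell and the other 7 were not called, with log2 fold changes from -0.07 (Atg14) to 0.21 (Bnip3). Over all genes tested, 2.09% were called lower and 3.24% higher. A link between E-boxes and calls was not tested.

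Of the 4 genes of the initiation complex, Ulk2 rose and the other 3 were not called. Ulk2 (ENSMUSG00000004798.14, mm10 chr11:61775649-61855073, minus strand) encodes one of the paired kinases that start autophagosome formation. Its level was 71.5, 71.8, 66.1, 70.6 and 68.1 CPM in Control 1 to 5 and 81.7, 82.1, 87.0, 86.8 and 79.8 CPM in HFpEF 1 to 5. All HFpEF libraries were above all Control libraries. The means were 69.6 ± 2.45 and 83.5 ± 3.22 CPM (SD, n = 5), a log2 fold change of 0.26 ± 0.04 (SE, adjusted p = 0.00350). Ulk1, the other kinase, stood at 82.4, 72.6, 72.5, 84.8 and 73.5 CPM in Control and at 57.9, 74.0, 74.0, 79.3 and 74.9 CPM in HFpEF. The groups overlapped and HFpEF 1 was far below the rest, with a log2 fold change of -0.10 (95% interval -0.26 to 0.06, adjusted p = 0.506). The scaffold Rb1cc1 (FIP200) differed by -0.03 (-0.12 to 0.06). Atg13, the regulatory subunit, was 28.5 ± 2.74 and 32.0 ± 0.840 CPM, with a log2 fold change of 0.17 (0.03 to 0.30, adjusted p = 0.143).

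Ratios of related genes within a library do not depend on library scaling. Those given here were chosen after the values were seen, with a called gene as the numerator, so they are a description with no test. The log2 ratio of Ulk2 to Ulk1 was -0.15 ± 0.09 in Control and 0.22 ± 0.16 in HFpEF (SD, n = 5). Every Control ratio was negative (-0.26 to -0.02) and every HFpEF ratio positive (0.09 to 0.50). These are ratios of counts, and merged exons are longer for Ulk1 (6488 bases) than for Ulk2 (5977). Per kb of exons, Ulk1 (11.9 ± 0.916 CPM) and Ulk2 (11.6 ± 0.409) did not differ beyond their spread in Control. In HFpEF, Ulk1 was at 11.1 ± 1.26 CPM per kb and Ulk2 at 13.97 ± 0.538. The signs of the count ratios thus do not show which transcript was the more abundant in each Control library.

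Neither gene of the lipid kinase complex was called. Becn1, its Beclin 1 subunit, was 17.0 ± 0.322 CPM in Control and 17.0 ± 0.824 CPM in HFpEF, with a log2 fold change of -0.00 (-0.11 to 0.11). The opposite-strand gene Cntd1 overlaps 43.9% of the exon bases of Becn1 but had at most 31 counts in a library. Atg14, the subunit that directs the complex to autophagy, was 5.80, 5.95, 6.10, 6.19 and 5.64 CPM in Control and 5.29, 5.48, 5.42, 5.90 and 6.18 CPM in HFpEF. These ranges overlapped, and the log2 fold change was -0.07 (-0.22 to 0.09, adjusted p = 0.650).

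The genes that supply and read the membrane were not called. Wipi1, which binds the lipid the kinase makes, was 58.8, 54.3, 49.0, 59.6 and 54.0 CPM in Control and 52.6, 63.0, 66.0, 61.5 and 57.9 CPM in HFpEF. The groups overlapped: HFpEF 1 was below 4 of the 5 Control libraries, and HFpEF 5 was below Control 1 and Control 4 (log2 fold change 0.13, -0.02 to 0.27, adjusted p = 0.305). Wipi2 (-0.04, -0.13 to 0.05) and the lipid scramblase gene Atg9a (-0.08, -0.19 to 0.03) had similar values in both groups.

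None of the 6 conjugation genes was called by edgeR, and none had an unadjusted p below 0.05; DESeq2 and limma voom called none either. The E2-like enzyme Atg3 (0.11, -0.01 to 0.23), the protease Atg4b (0.06, -0.07 to 0.18), the small protein Atg12 (0.07, -0.04 to 0.19) and its partner Atg5 (0.13, -0.06 to 0.32) had positive log2 fold changes. The E1-like enzyme Atg7 stood at -0.03 (-0.19 to 0.12). Atg16l1, which places the conjugation on the membrane, was 20.8, 21.1, 22.9, 23.2 and 23.3 CPM in Control and 21.5, 21.8, 20.1, 19.6 and 20.0 CPM in HFpEF. The 3 lowest values were HFpEF libraries, yet the groups overlapped (log2 fold change -0.11, -0.23 to 0.00, adjusted p = 0.251).

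Of the 5 ATG8 genes, Map1lc3a rose and 4 were not called. Map1lc3a (ENSMUSG00000027602.9, mm10 chr2:155276297-155278073, plus strand) encodes LC3A. Its level was 118, 116, 105, 124 and 110.5 CPM in Control 1 to 5 and 145, 146, 148, 146 and 138 CPM in HFpEF 1 to 5. The lowest HFpEF library was above the highest Control library. The means were 115 ± 7.47 and 145 ± 3.75 CPM (SD, n = 5), a log2 fold change of 0.34 ± 0.05 (SE, adjusted p = 0.00128). Map1lc3b, which encodes the LC3B protein used as a marker of autophagosomes, was 66.5 ± 2.13 and 67.3 ± 5.29 CPM (0.02, -0.10 to 0.13). Gabarap (-0.02, -0.17 to 0.13) and Gabarapl1 (-0.09, -0.22 to 0.03) were not called. Gabarapl2 was 21.9, 23.9, 20.1, 20.5 and 20.4 CPM in Control and 24.8, 23.8, 25.6, 23.3 and 22.4 CPM in HFpEF. Only Control 2 reached the HFpEF values (log2 fold change 0.17, 0.04 to 0.29, adjusted p = 0.109). Without this overlapping library the gene was called (0.22, adjusted p = 0.0461), and under the other 19 of 20 alternatives it was not.

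The log2 ratio of Map1lc3a to Map1lc3b was 0.78 ± 0.10 in Control and 1.11 ± 0.11 in HFpEF (SD, n = 5), a difference of 0.33. The ratios to Gabarap, Gabarapl1 and Gabarapl2 differed by 0.37, 0.43 and 0.17. Per length of merged annotated exons, Map1lc3a was also the highest of the family, at 97.1 ± 6.32 CPM per kb in Control and 123 ± 3.17 in HFpEF. Gabarap followed at 36.5 ± 2.07 and Gabarapl1 at 19.6 ± 1.16 CPM per kb in Control. In Control, Gabarapl2 (9.18 ± 0.675) and Map1lc3b (8.85 ± 0.284) did not differ beyond their spread, while in HFpEF Gabarapl2 (10.3 ± 0.535) was above Map1lc3b (8.95 ± 0.704) in every library. The exon length of Map1lc3b, 7517 bases, counts all annotated transcripts, so its level per kb may be understated.

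**Figure D3:**
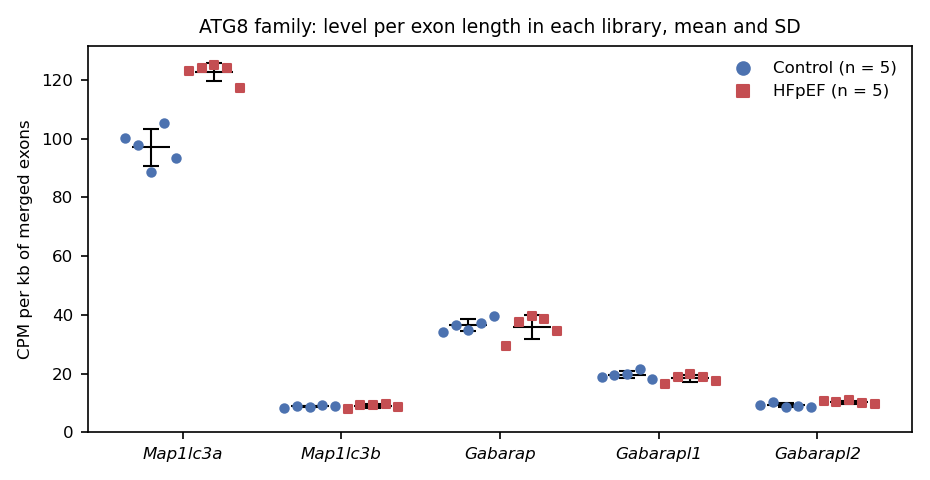
Level of the 5 ATG8 genes in CPM per kb of merged exons (y axis, from 0) in each library, Control as circles and HFpEF as squares, with the mean and SD of 5 libraries. Map1lc3a lies above the other genes in every library and is higher in HFpEF, and the other 4 genes overlap between the groups.

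The cargo receptors were not called. Sqstm1, which encodes p62, was 186 ± 9.77 CPM in Control and 177 ± 13.8 CPM in HFpEF (-0.08, -0.20 to 0.05, adjusted p = 0.501). Nbr1, a related receptor, was 89.1 ± 2.71 and 89.9 ± 3.44 CPM (0.01, -0.08 to 0.11). Optn, optineurin, a receptor of damaged mitochondria, was 20.8, 21.2, 18.9, 21.0 and 21.4 CPM in Control and 14.8, 19.2, 21.0, 19.1 and 17.9 CPM in HFpEF. The groups overlapped, with HFpEF 1 the lowest (-0.17, -0.33 to -0.01, adjusted p = 0.228).

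Of the 4 mitophagy genes, 1 was called. All 4 had positive log2 fold changes, as did 8726 of all 18491 genes tested. The 4 kept this sign under every alternative tried, but these fits reuse the same libraries. Pink1 (ENSMUSG00000028756.12, mm10 chr4:138313409-138326307, minus strand) encodes a kinase that accumulates on damaged mitochondria and starts their removal. Its level was 157, 152, 149, 168 and 142 CPM in Control 1 to 5 and 199, 179, 190.0, 191 and 177 CPM in HFpEF 1 to 5. All HFpEF libraries were above all Control libraries, with HFpEF 1 the highest. The means were 153 ± 9.62 and 187 ± 9.12 CPM (SD, n = 5), a log2 fold change of 0.29 ± 0.05 (SE, adjusted p = 0.00593). The receptor gene Fundc1 was 10.8 ± 0.481 and 12.0 ± 0.717 CPM (0.15, 0.02 to 0.28, adjusted p = 0.175). Bnip3l, which encodes the receptor NIX, was 33.95 ± 2.09 and 34.99 ± 2.04 CPM (0.04, -0.07 to 0.16).

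Bnip3, the related receptor, spread widely within Control, at 55.7, 75.7, 72.7, 62.1 and 57.4 CPM, against 69.0, 72.3, 83.6, 78.5 and 70.7 CPM in HFpEF. The groups overlapped through Control 2 and Control 3 (log2 fold change 0.21, 0.02 to 0.40, adjusted p = 0.189). The antisense gene Gm45507 (chr7:138890964-138894675, plus strand) overlaps 22.3% of the exon bases of Bnip3 and is not one of the 34; it was looked at for this overlap and chosen after its values were seen. It had 0, 1, 0, 18 and 0 counts in Control 1 to 5 and 48, 84, 95, 85 and 59 counts in HFpEF 1 to 5. The lowest HFpEF library thus had more counts than any Control library (log2 fold change 4.56 ± 0.67, adjusted p = 0.00431), and it stayed called without each library in turn. The size of this fold change is uncertain, since Control is near 0: it ran from 4.16 to 7.84 without 1 library, the latter without Control 4. The sources used here do not say whether reads were assigned by strand, so reads of Bnip3 and Gm45507 cannot be told apart. Bnip3 and Gm45507 together were 64.8 ± 8.99 and 77.2 ± 6.69 CPM (SD, n = 5).

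The log2 ratio of Pink1 to Bnip3l was 2.17 ± 0.14 in Control and 2.42 ± 0.03 in HFpEF (SD, n = 5), a difference of 0.25. The ratios of Pink1 to Fundc1 and to Bnip3 differed by 0.14 and 0.07.

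Neither MiT/TFE factor was called. Tfeb, the factor that drives lysosomal genes, was 15.4, 13.0, 13.7, 16.1 and 14.7 CPM in Control and 16.5, 16.02, 15.1, 17.4 and 15.1 CPM in HFpEF. The groups overlapped (0.14, -0.01 to 0.28, adjusted p = 0.276). Tfe3, its paralog, was 14.7 ± 1.17 and 14.3 ± 0.794 CPM (-0.05, -0.19 to 0.09).

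The lysosomal membrane genes were not called. Lamp2, which is needed for fusion of autophagosomes with lysosomes in the heart, was 141, 152, 148, 141 and 146 CPM in Control and 148, 151, 156, 149 and 136 CPM in HFpEF. The groups overlapped, and the log2 fold change was 0.02 (-0.08 to 0.13, adjusted p = 0.830). Lamp1 varied more, at 158, 168, 132, 172 and 195 CPM in Control and 129, 169, 176, 173 and 163 CPM in HFpEF. Its lowest values were in 1 library of each group, Control 3 and HFpEF 1 (-0.02, -0.25 to 0.20).

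Of the 3 cathepsin genes, Ctsl fell and the other 2 were not called. Ctsl (ENSMUSG00000021477.9, mm10 chr13:64359337-64370890, minus strand) encodes the cysteine protease cathepsin L. Its level was 49.2, 56.0, 55.6, 49.7 and 52.6 CPM in Control 1 to 5 and 39.8, 43.2, 44.4, 41.6 and 44.7 CPM in HFpEF 1 to 5. All HFpEF libraries were below all Control libraries. The means were 52.6 ± 3.196 and 42.7 ± 2.04 CPM (SD, n = 5), a log2 fold change of -0.30 ± 0.05 (SE, adjusted p = 0.00390). The antisense gene Gm47123 overlaps 26.9% of its exon bases and had at most 18 counts in a library. Ctsb, cathepsin B, was 176 ± 16.7 and 177 ± 14.5 CPM (0.01, -0.14 to 0.15). Ctsd, the aspartic protease cathepsin D, was the most abundant of the 34 per exon length, at 136 CPM per kb in Control (log2 fold change -0.02, -0.20 to 0.15). The same-strand gene Gm49369 shares 34.4% of the exon bases of Ctsd and held 1195 to 2236 counts, so the division of reads between them is uncertain.

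The log2 ratio of Ctsl to Ctsb was -1.74 ± 0.16 in Control and -2.05 ± 0.10 in HFpEF, and that of Ctsl to Ctsd was -2.60 ± 0.16 and -2.87 ± 0.15 (SD, n = 5). Macrophages are rich in cathepsins, and 11 of 12 macrophage markers had a negative log2 fold change, with a median of -0.31. By edgeR 0 were called, and 7 had an unadjusted p below 0.05. Over all 18491 genes tested, 9765 had a negative log2 fold change and 3789 had such a p. The summed level of the 12 markers was 166 to 261 CPM in Control and 138 to 179.9 CPM in HFpEF. It was highest in Control 5, and all 12 were detected in every library. Among other cell types, endothelial Emcn (-0.27, edgeR adjusted p = 0.0447) and neutrophil Csf3r (-0.81, adjusted p = 0.0479) were called lower. Endothelial markers were negative for 5 of 6. No fibroblast marker (4 of 7 positive) and no smooth muscle and pericyte marker (6 of 7 positive) was called. The part of these marker differences in the values of Ctsl was not tested. In bulk tissue, fewer cells of a type and less RNA per cell cannot be told apart.

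One library, HFpEF 1, stood apart for many of the 34 genes. It was the lowest of the 10 libraries for 13 of the 34 genes (38.2%), while it was the lowest for 13.8% of all genes tested. The 13 were Ctsd, Sqstm1, Nbr1, Gabarap, Ctsl, Ctsb, Optn, Ulk1, Gabarapl1, Lamp1, Map1lc3b, Atg9a and Atg14. Ctsl was called lower, with all HFpEF libraries below Control, and the rest were not called. HFpEF 3 was the highest library for 11 of the 34 and the lowest for 0, against 11.3% and 11.5% of all genes tested. As deviations from the mean log2 CPM of the other 4 HFpEF libraries, HFpEF 1 stood at -0.40 for Lamp1, -0.38 for Ulk1, -0.37 for Optn and -0.36 for Ctsd. In the same library the fifth of all genes with the highest G and C content of transcripts had a median deviation of -0.07 and the fifth with the lowest had 0.10, and 6 of the 34 belong to the former. Over the 34 genes, the G and C content and the deviation in HFpEF 1 had a Pearson's r of -0.25, a description across genes of 1 library. It was -0.26 over the 8276 tested genes with a mean log2 CPM above 3, so it is not particular to the 34. The part of base content in these values was not tested. Without HFpEF 1, the same 4 genes were called.

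**Figure D4:**
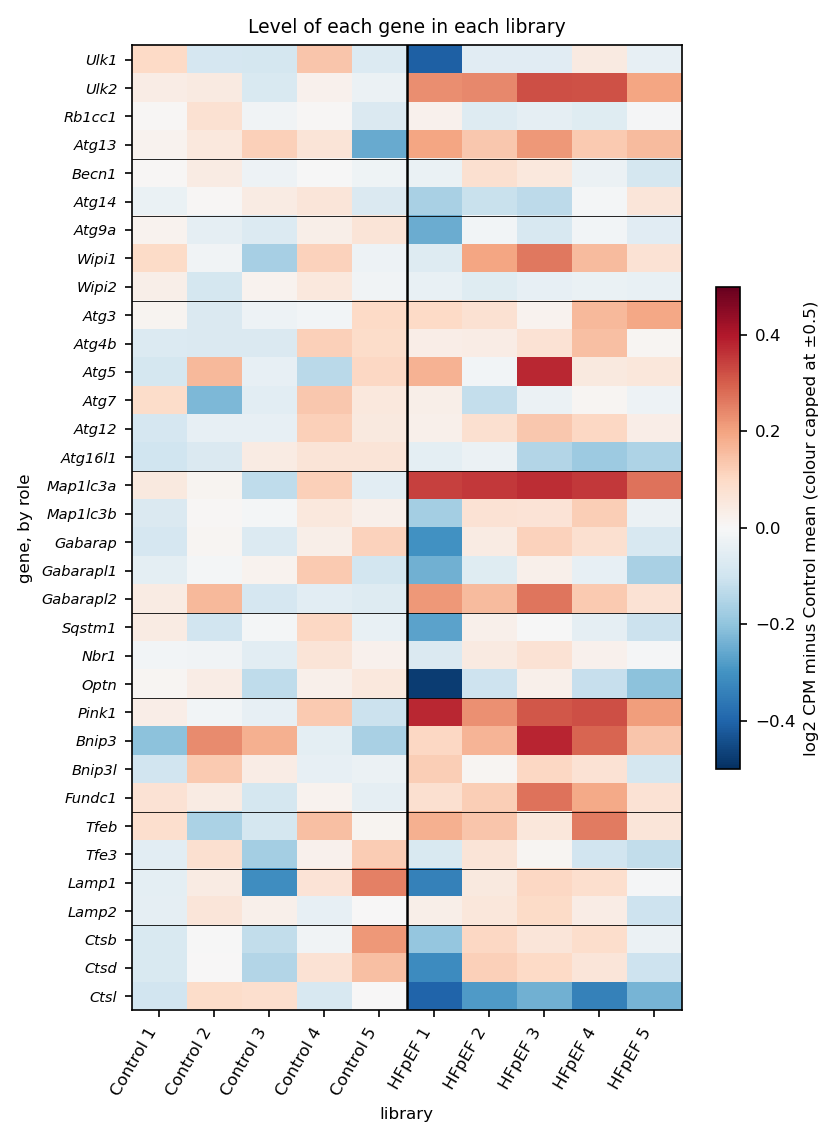
Log2 CPM minus the Control mean (colour, capped at ±0.5) of the 34 genes (rows, by role) in the 10 libraries (columns, Control left of the line). Ulk2, Map1lc3a and Pink1 are red and Ctsl blue in all HFpEF libraries, while HFpEF 1 is blue for Ulk1, Gabarap, Sqstm1, Optn, Lamp1, Ctsb and Ctsd, which the other HFpEF libraries do not share to that degree.

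Beyond the 34, 145 further genes of the same pathways, in 8 lists, were read in the same fit. Of these, 6 rose, 1 fell and 138 were not called, so 4.83% were called, near the 5.33% of all genes, and their median log2 fold change was -0.00. Among 18 lysosomal membrane genes, 3 rose and 15 were not called. The 3 were Laptm4a (from 101 ± 6.10 to 120.0 ± 3.53 CPM, a difference of 0.24 in log2, adjusted p = 0.00999), Scarb2 (from 127 ± 9.71 to 149.8 ± 5.70 CPM, 0.24, adjusted p = 0.0215) and the cholesterol exporter gene Npc1 (0.18, adjusted p = 0.0388). Scarb2 encodes LIMP-2, which carries glucocerebrosidase to the lysosome. Of 30 other lysosomal hydrolases, 0 were called by edgeR, with 5 at an unadjusted p below 0.05 and 22 of 30 values negative. Over all 18491 genes tested, 3789 had such a p and 9765 values were negative. DESeq2 called Psap, the precursor of the saposins, and limma voom called none; by edgeR Psap was at 472 ± 23.4 and 538 ± 34.03 CPM (0.19, adjusted p = 0.0651).

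Among 25 other genes of the autophagy machinery, Tecpr1, a tether of autophagosomes and lysosomes, stood at 30.3 ± 1.05 CPM in Control and fell to 25.4 ± 2.53 in HFpEF (-0.25 in log2, adjusted p = 0.0315) and 24 were not called. Among 20 other mitophagy and receptor genes, Nipsnap2, which encodes a mitochondrial protein that recruits autophagy receptors, rose from 248 ± 15.8 to 299 ± 23.7 CPM (0.27, adjusted p = 0.0199) and 19 were not called. Of the 18 subunits of the proton pump of lysosomes (V-ATPase), 0 were called by edgeR, DESeq2 or limma voom. An unadjusted edgeR p below 0.05 was found for 3 of them, and for 3789 of all 18491 genes tested. The smallest p was that of Atp6v1d (-0.17, adjusted p = 0.0984). Of 22 genes of mTORC1, the kinase complex that restrains autophagy, and its regulators, Sesn3 rose (0.21, adjusted p = 0.0437) and 21 were not called; DESeq2 also called Rragd. Of 6 chaperones of selective autophagy none was called by edgeR, DESeq2 or limma voom, 2 had an unadjusted p below 0.05, and the smallest p was that of Synpo2 (0.16, adjusted p = 0.163). Of 6 further transcription factors, Foxo4 rose (0.27, adjusted p = 0.0210) while Foxo1 (-0.02, -0.11 to 0.08) and Foxo3 (0.08, -0.08 to 0.25) were not called.

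These calls were less stable than those of the 4 genes above. Of the 10 fits without 1 library, Laptm4a was called in 10, Scarb2 and Nipsnap2 in 8, Foxo4 in 7, Tecpr1 in 5, and Npc1 and Sesn3 in 3 each. With the replicate number as a block, Laptm4a and Foxo4 were the calls left.

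**Figure D5:**
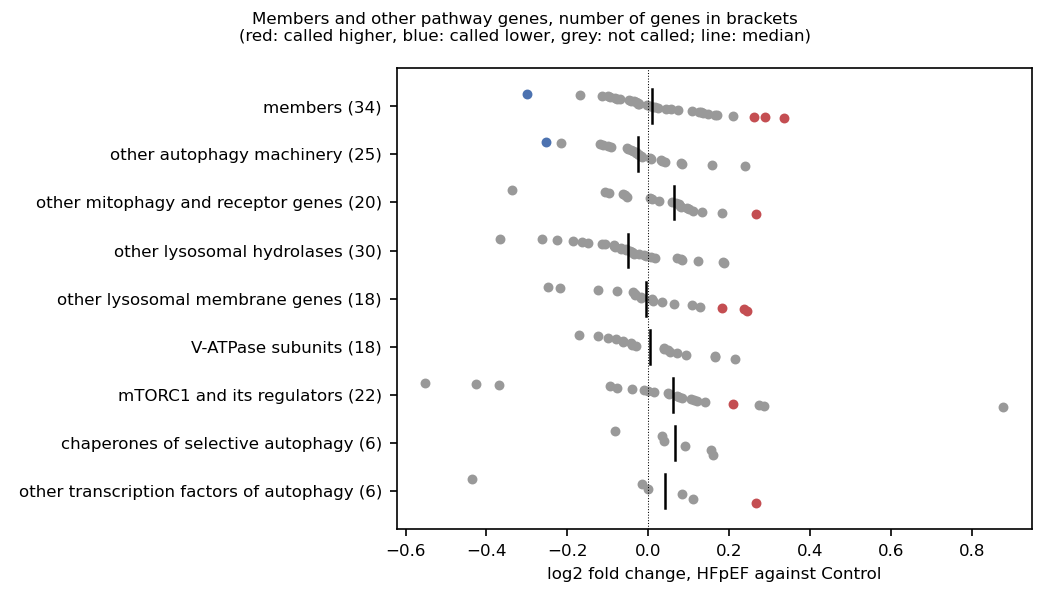
Log2 fold change, HFpEF against Control (x axis), of the 34 genes (top row, labelled members) and of the 8 lists of further pathway genes, with the number of genes in brackets; each point is 1 gene, red called higher, blue lower, grey not called, and the line is the median of the list. The medians lie between -0.05 (other lysosomal hydrolases) and 0.07 (chaperones).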

How the data were processed

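RNA was measured in left ventricles, in 5 Control and 5 HFpEF libraries. Per the labels' protocols, ribosomal RNA was depleted from total RNA before library construction. The submitters' processing notes list Bowtie2 2.1.0, RSEM 1.2.15 and mm10 and give no role for them. The deposited values were read as RSEM expected counts per gene, not normalized; all were whole numbers. The 92 ERCC spike-in rows, with 0 counts, were left out.

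The test was edgeR 4.0.16 (R 4.3.3), after filterByExpr at a minimum count of 10, with TMM scaling and robust quasi-likelihood fits on group alone. P-values were adjusted by Benjamini-Hochberg over 18491 genes. The fit was tested on 3 simulations, each with 200 changed genes drawn from all genes tested. Of the changes, 15.9% were called at 1.2-fold, 53.7% at 1.5-fold and 87.6% at 2-fold, and 5.71% of calls were false. The 34 genes were not simulated apart. Coordinates and exon lengths came from GENCODE M21 (mm10), matched by gene ID without version for all 34 genes. Values in every library were given for called genes and for the smallest p of each role; Ulk1, Gabarapl2, Bnip3 and Lamp1 were added after their values were seen. Of the other lists, called genes were named, up to 5 a list, or else the smallest p. The genes and lists were chosen with earlier results of these data known.

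Alternatives were RLE and upper quartile scaling, no filter and a stricter one (1 CPM in 5 libraries), DESeq2 1.42.0, limma 3.58.1 voom, removal of mitochondrial transcripts, a replicate block and leaving out each library. Leaving out Control 4 with Control 5, or Control 5 with HFpEF 1, was added after seeing the data.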

Additional observations from a re-analysis of the deposited data

Results flagged for a closer look

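In 90 groups of 5 values (45 named genes in each of the 2 groups), 7 held a library far from the other 4, where chance alone gives about 1 in 20. HFpEF 1 was low for Ulk1 (57.9 CPM against 74.0 to 79.3), Lamp1 (129 against 163 to 176) and Psap (478 against 543 to 559). HFpEF 2 was low for Wipi2 (31.5 against 31.9 to 32.0 CPM). HFpEF 5 was low for Map1lc3a (138 against 145 to 148 CPM). Control 3 was low for Optn (18.9 against 20.8 to 21.4 CPM). Control 4 was high for Gm45507 (0.406 against 0 to 0.0296 CPM).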

How the results depend on the processing

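Ulk2, Map1lc3a, Pink1 and Ctsl kept direction and call under all 20 alternatives, with adjusted p up to 0.0213 for Ulk2, 0.00708 for Map1lc3a, 0.0187 for Pink1 and 0.0164 for Ctsl. Of the 34 genes, 3 to 4 were called higher (Gabarapl2 in addition without Control 2) and 1 lower. All genes called ran from 554 to 1101 without 1 library (554 without HFpEF 3, 630 without Control 1, 633 without HFpEF 4; 985 with all libraries). Other pathway genes called higher were 6 and ran from 1 to 7 without 1 library (2 without Control 1, 1 without HFpEF 3, 2 without HFpEF 4). Those called lower were 1 and ran from 0 to 1; DESeq2 called 2. The replicate block gave 744 calls over all genes, and 2 higher and 0 lower of the other pathway genes. The numbers share no known source: same-numbered libraries correlated from -0.110 to 0.0638, and 2 of 5 Control libraries correlated best with their own number. Without Control 4 and Control 5 together, 3 were higher and 0 lower. Without Control 5 and HFpEF 1 together, 11 were higher, and the median of the 34 genes was 0.067. The cause of these shifts was not tested. Of 680 values of the 34 genes under the alternatives, 35 changed sign, in 9 uncalled genes near 0. Becn1 was at 0.0036 with RLE scaling and 0.0065 with DESeq2, and with upper quartile scaling Nbr1 was at -0.0015 and Ctsb at -0.0079. Without Control 4 and Control 5, Atg7 was at 0.032, Gabarap 0.028, Tfe3 0.0042, Lamp1 0.089 and Ctsd 0.056. Without Control 5 and HFpEF 1, Becn1 was at 0.00027, Gabarap 0.068, Lamp1 0.114 and Ctsd 0.081. Without 1 library, log2 fold changes ran from -0.023 to 0.019 for Becn1, -0.078 to 0.0068 for Atg7, -0.011 to 0.060 for Map1lc3b, -0.060 to 0.038 for Gabarap, -0.0030 to 0.035 for Nbr1, -0.095 to 0.050 for Lamp1, -0.025 to 0.072 for Ctsb and -0.059 to 0.043 for Ctsd. Depth and 5 libraries per group limit what can be called, and changes of the size seen here can be missed.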
